A study of Mus musculus with 4 samples.

Results

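The genes of 10 inflammatory CC chemokines were followed across the immune cells of mouse glioma: Ccl2, Ccl7, Ccl8, Ccl12 and Ccl1, and Ccl3, Ccl4, Ccl5, Ccl6 and Ccl9. They are 10 of the 31253 genes counted in each library, and each was found by its symbol, independent of its level. C57Bl/6 mice received 50000 cells of CT2a, a mouse glioma line, in the brain, and on day 14 live CD45+ cells were sorted from the hemisphere that bore the tumor. WT mice were compared with mice labelled CaMKK2 KO and all mice bore tumors. Female sex and an age of 8 to 12 weeks are stated for the experiments as a whole, not for these libraries. CaMKK2 is a kinase that is activated by calcium and calmodulin, and the CaMKK2 KO mice carried the deletion in the germline, that is, in immune cells, neurons and all other host cells. The cells of 4 mice per genotype carried hashtag antibodies and were pooled on 1 droplet channel per genotype. Genotype thus cannot be told apart from channel, and the replicates are the 4 mice that the hashtags separate in each library.

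CC chemokines are small secreted proteins with a pair of adjacent cysteines, which attract leukocytes along gradients through receptors coupled to G proteins. Ccl2, Ccl7 and Ccl12 are ligands of Ccr2, the receptor that draws classical monocytes out of the bone marrow and into inflamed tissue. Ccl8 and Ccl1 are ligands of Ccr8, a receptor of regulatory and other T cells. Ccl3, Ccl4 and Ccl5 are made by activated macrophages, NK cells and T cells, and Ccl3 and Ccl5 act on Ccr1. Ccl6 and Ccl9 are rodent chemokines of myeloid cells that act on Ccr1. In glioma, microglia and macrophages that derive from monocytes are known as major sources of such chemokines.

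All 10 genes lie on chromosome 11 of the mouse genome (GRCm38, GENCODE M21), in groups of 5. The first group spans 270.1 kb in the order Ccl2 (82035571 to 82037453), Ccl7, Ccl12, Ccl8 and Ccl1, the last of these on the minus strand with a gene model from 82176657 to 82305690. The RefSeq promoter of Ccl1 given below (82179813 to 82180062) lies inside that model. This span and the distance to the second group therefore rest on the GENCODE model. The second group spans 139 kb, begins 1220 kb further on, and holds Ccl5 (83525778 to 83530518, minus strand), Ccl9, Ccl6, Ccl3 and Ccl4 (83662584 to 83664683, plus strand). Camkk2 itself lies on chromosome 5. RefSeq promoter sequences (GRCm38.p6) were at hand for 6 of the 10 genes, namely Ccl12, Ccl8, Ccl1, Ccl9, Ccl6 and Ccl3. The 250 bases before the start site are shown for Ccl12 and Ccl8, neighbors in the first group with high and low levels in the same myeloid classes, for Ccl1, which was detected in T and NK cells, and for Ccl9, which was highest in cMono-like cells among classes of at least 50 cells. They are chr11:82101595-82101844 (Ccl12, plus strand), chr11:82114935-82115184 (Ccl8, plus strand), chr11:82179813-82180062 (Ccl1, minus strand) and chr11:83578637-83578886 (Ccl9, minus strand), each 5′ to 3′ along its gene, with the matches to the motifs searched in capitals.
Ccl12: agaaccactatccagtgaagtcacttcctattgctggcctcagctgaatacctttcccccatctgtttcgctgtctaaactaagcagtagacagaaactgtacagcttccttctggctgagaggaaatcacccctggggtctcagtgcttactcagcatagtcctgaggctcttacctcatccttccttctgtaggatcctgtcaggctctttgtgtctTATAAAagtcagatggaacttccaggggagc
Ccl8: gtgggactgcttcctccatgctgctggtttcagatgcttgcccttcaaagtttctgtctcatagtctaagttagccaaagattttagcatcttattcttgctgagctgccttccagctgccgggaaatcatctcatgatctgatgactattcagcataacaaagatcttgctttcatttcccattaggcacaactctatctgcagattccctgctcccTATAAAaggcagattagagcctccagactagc
Ccl1: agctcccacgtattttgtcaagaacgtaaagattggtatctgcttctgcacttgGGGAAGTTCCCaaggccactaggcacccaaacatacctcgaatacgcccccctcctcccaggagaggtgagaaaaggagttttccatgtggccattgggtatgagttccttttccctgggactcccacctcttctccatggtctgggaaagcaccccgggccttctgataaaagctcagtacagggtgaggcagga
Ccl9: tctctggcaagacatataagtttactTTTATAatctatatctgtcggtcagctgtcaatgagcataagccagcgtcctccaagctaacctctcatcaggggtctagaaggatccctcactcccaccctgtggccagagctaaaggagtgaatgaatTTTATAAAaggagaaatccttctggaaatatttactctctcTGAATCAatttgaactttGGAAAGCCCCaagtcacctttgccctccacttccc
The search covered 5 motifs on both strands: the NF-kB decamer, the interferon-response motif (GAAA, any 2 bases and GAAA again), TTCNNNGAA (a STAT type), TGANTCA (an AP-1 type) and TATAAA. The TATAAA box began at position -31 of Ccl12 and -32 of Ccl8, counted from the start site. Ccl1 held the NF-kB decamer at position -196 and, overlapping it, at -195. Ccl9 held it at position -35, TGANTCA at -53, and TATAAA on either strand at -224, -94 and -92, of which the last pair overlap. None of the 5 motifs was found for Ccl6 or Ccl3. Over 32851 promoters of 300 bases, the NF-kB decamer was present in 8.46%, the interferon-response motif in 3.44%, TTCNNNGAA in 8.30%, TGANTCA in 7.81% and TATAAA in 13.6%. A match is a run of letters and not a measured binding site.

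After quality filters, 5043 WT and 5635 CaMKK2 KO cells remained, with 1009 to 1664 cells and 11963166 to 20342674 UMIs (unique molecular identifiers) per mouse. The libraries had 42 barcodes in common, 8 of them among the cells kept. Cells were gated into 17 classes with marker genes that include no CC chemokine, and the classes are written here as TAM-like (tumor-associated macrophage), cMono-like and ncMono-like (classical and non-classical monocyte), TIL-like (T cell) and so on. Each class held its own markers above all other classes, except that the TAM list, which rests on complement genes, was higher in microglia-like cells. Markers of glioma, neural and endothelial cells summed to 47.2 CPM (UMIs per 1e6 UMIs of the class) in TAM-like cells of WT and 73.9 in those of CaMKK2 KO mice. Cells were also clustered without any CC chemokine gene, and each cluster took the gate class of most of its cells. This placed 88.0% of cells in the class of their gate, an agreement that is in part built in. Levels are CPM per mouse, computed from UMIs at the 3′ end, which do not scale with transcript length, and are given as mean ± SD over mice. Camkk2, the targeted gene, stood at 24.2, 26.2, 32.6 and 26.2 CPM in TAM-like cells of WT mice 1 to 4 and at 11.4, 12.1, 12.7 and 17.5 CPM in those of CaMKK2 KO mice. This was a log2 fold change of -1.05 ± 0.15 (SE) and an adjusted p of 0.00729 (edgeR's quasi-likelihood test, Benjamini-Hochberg adjustment over all genes tested), with no overlap between genotypes. Its UMIs did not vanish from CaMKK2 KO cells, and counts per gene do not show which exons they came from.

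The first group of genes was detected mainly in TAM-like, microglia-like and cMono-like cells. Ccl2, the prototype monocyte chemoattractant, stood in WT mice at 1065 ± 338 CPM (SD, n = 4 mice) in microglia-like cells, at 588 ± 110.1 in TAM-like cells and at 522 ± 244 in cMono-like cells, and the ranges over mice of neighbors in this order overlapped. In the other 12 classes of at least 50 cells its mean in WT mice was at most 102 CPM, the level of ncMono-like cells. NK-like and CD8 TIL-like cells, with means of 12.1 and 15.6 CPM, did not exceed B cell-like cells, which stood at 20.6 CPM and are taken here as a gauge of free RNA. Ccl12, a close relative that also acts on Ccr2, differed more between these classes than Ccl2. It was at 1614, 1612, 2578 and 1986 CPM in microglia-like cells of the 4 WT mice and at 349, 644, 737 and 575 CPM in their TAM-like cells, so that the lowest microglia-like value lay above the highest TAM-like value. cMono-like cells had 63.6 ± 48.2 CPM of Ccl12, again below every TAM-like value. Ccl7, the third of the Ccr2 ligands, had another order, and its means in WT mice were 242 ± 72.2 CPM in TAM-like cells, 85.1 ± 44.5 in cMono-like cells and 83.7 ± 42.1 in microglia-like cells. Its TAM-like range, 163 to 314 CPM, lay above those of the other classes. Ccl8 was rarer by far, at 16.5 ± 7.99 CPM in TAM-like cells, which held 94.4% of its UMIs in WT and 95.5% in CaMKK2 KO mice. Only 100 of 1865 WT TAM-like cells had a Ccl8 UMI, and the highest had 51. Microglia-like cells of WT mice had 9.38 ± 14.0 CPM of Ccl8, a range that overlapped with that of TAM-like cells.

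Ccl1 stood apart from its chromosomal neighbors and was found in T and NK cells. In WT mice it was at 6.62, 223, 9.66 and 261 CPM in CD8 TIL-like cells of mice 1 to 4, a pattern of 2 high and 2 low mice. NK-like cells of the same mice had 67.7, 21.2, 22.6 and 2.20 CPM. In TAM-like, microglia-like and cMono-like cells of either genotype its mean was at most 1.20 CPM. The high values came from few cells. Of 397 CD8 TIL-like cells in WT mice, 35 had a UMI of Ccl1, and 3 cells held 66.8% of the 749 UMIs. In CaMKK2 KO mice the gene was found instead in CD4 TIL-like cells, at 868, 41.4, 776 and 376 CPM in mice 1 to 4, where 25 of 233 cells held 766 UMIs and a single cell held 231. WT mice had 1 UMI of Ccl1 in 45 CD4 TIL-like cells and no such cell in mouse 1, too few for a test.

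Among classes of at least 50 cells, Ccl3 and Ccl4, the macrophage inflammatory proteins, had their highest means over mice in microglia-like cells. Ccl3 stood at 2617, 2221, 2355 and 3851 CPM in microglia-like cells of the 4 WT mice, above every value in any other class of at least 50 cells. TAM-like cells had 481 ± 94.6 CPM of Ccl3 and cMono-like cells 335 ± 124, with overlapping ranges. Ccl4 had the same order in these classes, and stood at 4232 ± 1205 CPM in microglia-like cells, 816 ± 303 in TAM-like cells and 436 ± 181 in cMono-like cells. Ccl4 was also found in plasmacytoid DC (pDC)-like cells. Of these, 31 of 35 WT cells and 37 of 41 CaMKK2 KO cells had a UMI, and the level pooled over cells was 4447 and 2407 CPM. Their range over mice overlapped that of microglia-like cells in either genotype. Their median depth was 11942 UMIs over both genotypes, compared with 4197 UMIs in B cell-like cells. Of the B cell-like cells of CaMKK2 KO mice, 24 of 197 had a Ccl4 UMI, and 3 cells held 72.3% of the 83 UMIs. As means of 4 mice the share of B cell-like cells with a Ccl4 UMI was 19.9% in WT and 12.5% in CaMKK2 KO mice. CD8 TIL-like cells had 547 ± 303 CPM of Ccl4 and 137 ± 81.4 of Ccl3 in WT mice, compared with 51.2 and 20.0 CPM in B cell-like cells. The highest levels of all were in 12 mast or basophil-like cells of WT mice, which pooled to 14571 CPM of Ccl3 (exact Poisson 95% interval 13781 to 15395) and 23639.7 of Ccl4 (22630.3 to 24683). In the 9 such cells of CaMKK2 KO mice, 4 had a UMI of each gene, and the levels pooled to 11268 and 18232 CPM. In this class 3 cells held 49.6% of the Ccl3 and 53.5% of the Ccl4 UMIs of WT mice, and 85.4% and 90.8% in CaMKK2 KO mice. Summed over the 10 genes, the level of the class ran from 320 to 131085 CPM over CaMKK2 KO mice. The Poisson intervals cover counting error alone.

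Ccl6 and Ccl9, which lie next to each other, were highest in cMono-like cells of WT mice among classes of at least 50 cells. In WT mice Ccl9 was at 696, 551, 385 and 275 CPM in cMono-like cells and Ccl6 at 591, 601, 339 and 277 CPM. ncMono-like cells had 324 ± 115 CPM of Ccl6 and 184 ± 72.2 of Ccl9. TAM-like cells had 238 ± 96.5 CPM of Ccl6 and 209 ± 91.1 of Ccl9, and neighbors in the order of these 3 classes overlapped over mice for either gene. Conventional DC1-like cells, which had 65.1 ± 63.4 CPM of Ccl6, had 8.07 ± 6.01 of Ccl9. Neutrophil-like cells, 21 in WT mice, had a Ccl6 UMI in 16 cells and a Ccl9 UMI in 2, and pooled to 990.3 and 20.6 CPM. The 12 mast or basophil-like cells of WT mice again pooled to more, 4047 CPM of Ccl6 and 3462 of Ccl9 with a UMI of each gene in 8 cells, and the 9 such CaMKK2 KO cells to 5231 and 1297 CPM with 4 cells each. The class means of lymphocytes in WT mice were at most 3.05 CPM of Ccl6 and at most 9.09 of Ccl9.

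Ccl5, the chemokine of effector lymphocytes also known as RANTES, was found at high levels in lymphocytes and mature DC-like cells. In WT mice mature DC-like cells stood at 4574, 6697, 5429 and 6727 CPM, CD8 TIL-like cells at 3686, 3256, 3630.4 and 1996 CPM, and NK-like cells at 1469, 2427, 2147 and 1734 CPM. Every NK-like value lay above every TAM-like, cMono-like and microglia-like value of WT mice, the highest of which was 423 CPM. CD4 TIL-like cells, 15 in each of WT mice 2 to 4 and none in mouse 1, stood at 3721, 4917 and 2349.8 CPM, and B cell-like cells had 23.4 ± 10.5 CPM. The mean of 3357 CPM in pDC-like cells rests on WT mouse 1, which had a single such cell. WT mice 2 to 4 had at most 24.4 CPM there.

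**Figure D1:**
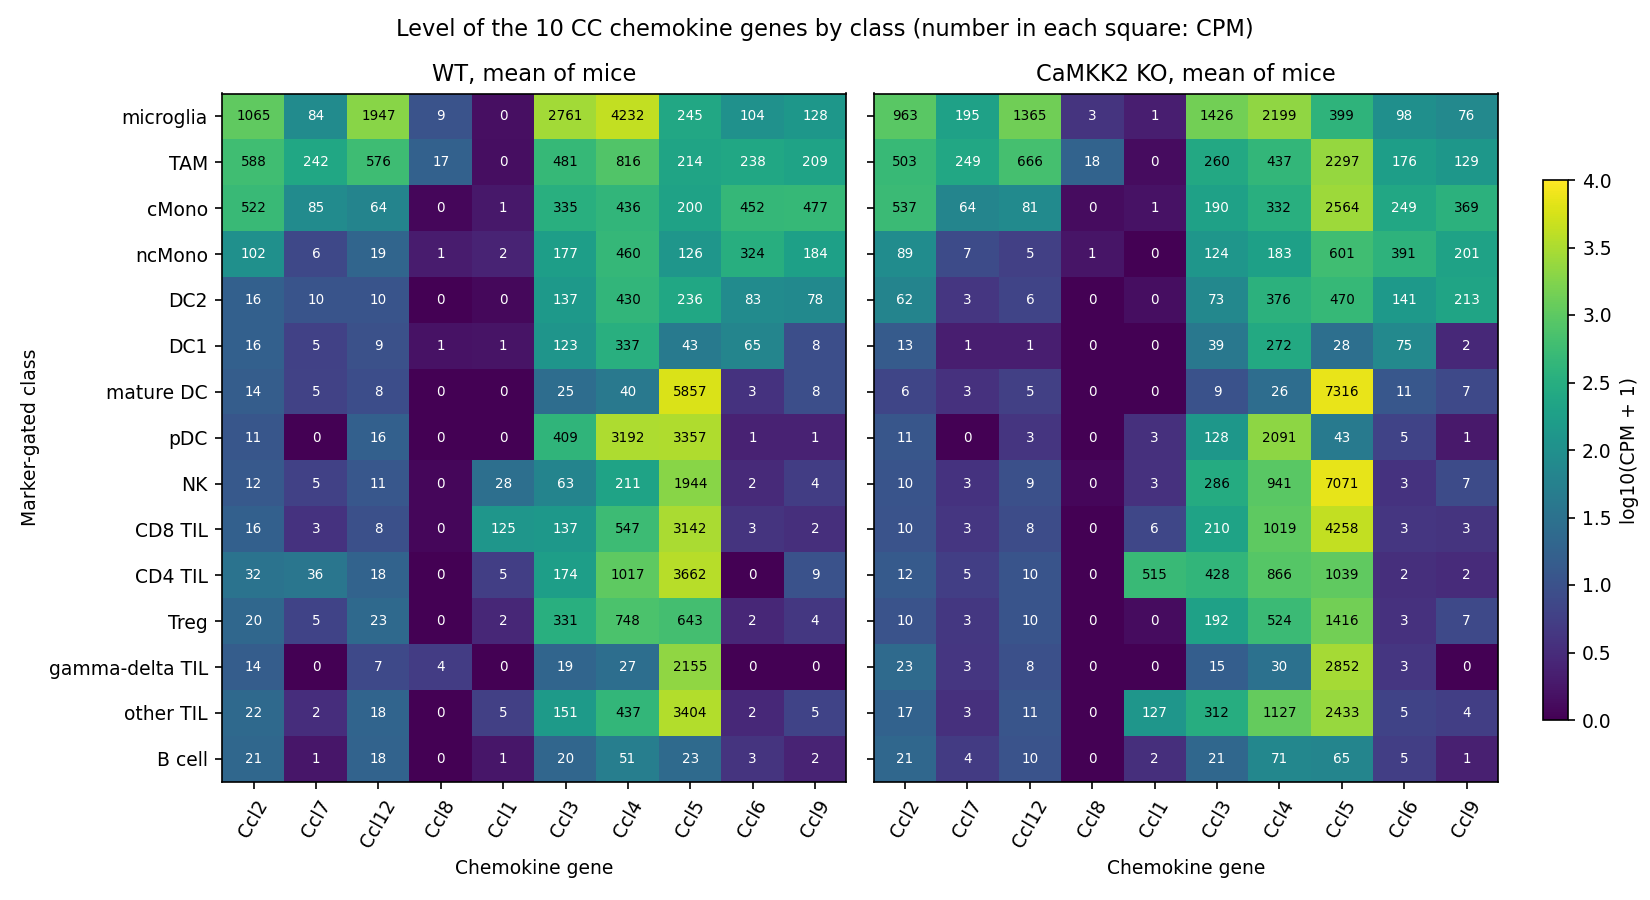
Mean CPM over mice of each chemokine gene (columns) in the 15 classes of at least 50 cells (rows), WT on the left and CaMKK2 KO on the right, colored by log10(CPM + 1) with the mean printed in each square and the ending -like left out. Ccl2 and Ccl12 are brightest in microglia, Ccl5 is bright in mature DC and lymphocytes of both genotypes and turns from 214 to 2297 CPM in TAM, and the 3357 CPM of Ccl5 in WT pDC comes from 1 cell.

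The share of a gene's UMIs in each class combines its level with the number of cells. TAM-like cells (1865 WT and 1525 CaMKK2 KO) held 84.0% of the Ccl7 UMIs in WT mice, 66.2% of those of Ccl12 and 62.7% of those of Ccl2 (means of 4 mice). cMono-like cells (772 WT and 1506 CaMKK2 KO) held 18.5% of the Ccl2 UMIs in WT and 39.4% in CaMKK2 KO mice, although the Ccl2 level of the class was 522 and 537 CPM. Microglia-like cells (337 WT and 138 CaMKK2 KO) held 34.3% of the Ccl3 UMIs in WT and 15.6% in CaMKK2 KO mice, and 31.5% and 11.1% of those of Ccl4. For Ccl5, TIL-like cells held 37.6%, NK-like cells 30.7% and TAM-like cells 12.9% in WT mice. In CaMKK2 KO mice the same classes held 17.0%, 26.5% and 26.1%, and cMono-like cells a further 23.9% compared with 3.75% in WT mice. These shares were not tested.

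**Figure D2:**
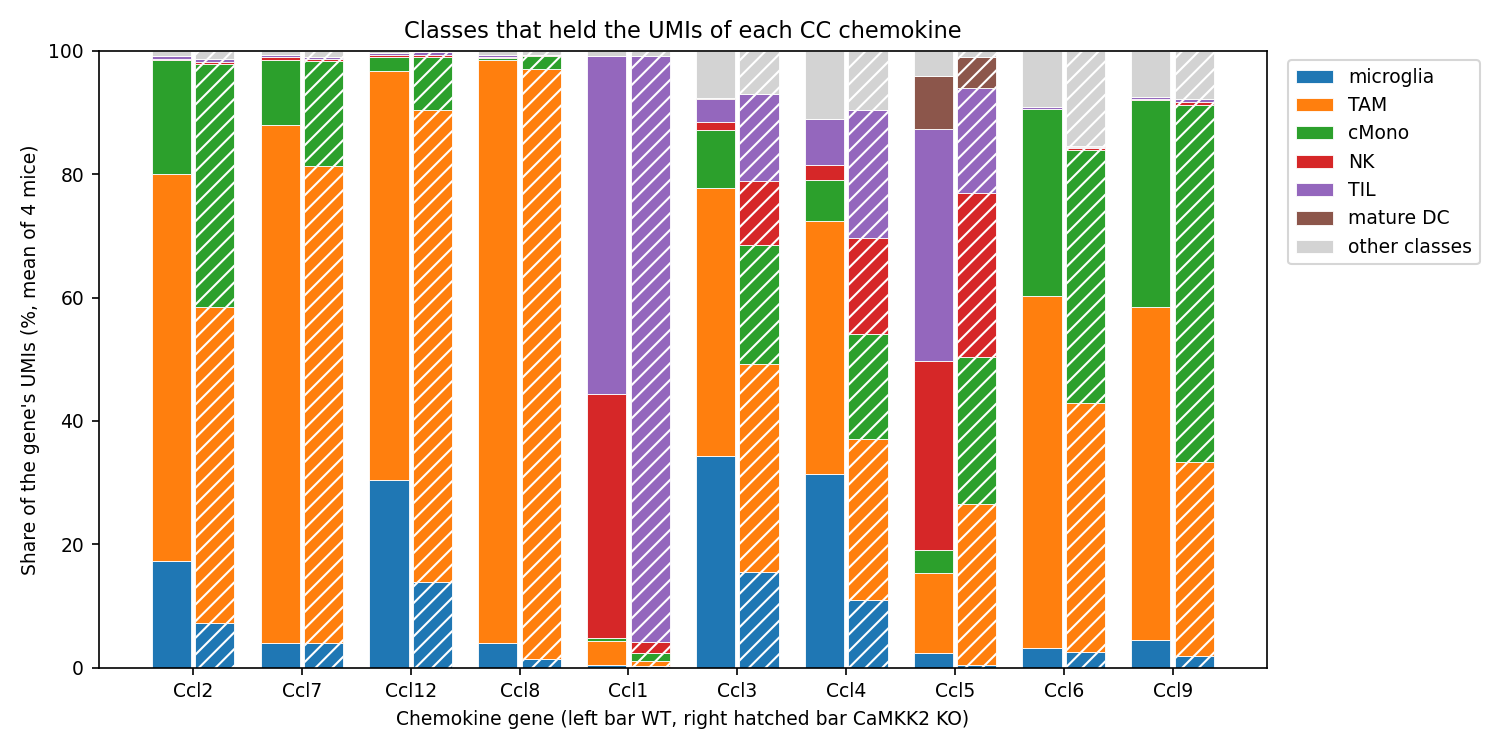
Share of each gene's UMIs (percent, mean of 4 mice) that fell in each class, left bars WT and right hatched bars CaMKK2 KO. TAM and microglia fill most of the Ccl7, Ccl8 and Ccl12 bars, TIL and NK fill the Ccl1 bars, and the TAM and cMono parts of the Ccl5 bar grow from 12.9% and 3.75% in WT to 26.1% and 23.9% in CaMKK2 KO mice.

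Within a class, some genes were detected more often in cells that had a UMI of another gene of their group than in cells that had none. With every cell thinned to 3000 UMIs, Ccl2 was detected in 76.3% of WT TAM-like cells that had a Ccl7 UMI and in 31.3% of those that had none. For Ccl2 with Ccl12 the shares were 60.3% and 27.0%, for Ccl3 with Ccl4 60.9% and 27.7%, and for Ccl6 with Ccl9 47.9% and 29.5%. All 4 pairs had the same direction in 4 of 4 WT and 4 of 4 CaMKK2 KO mice. Ccl5 did not follow Ccl4 in TAM-like cells, where it was detected in 19.3% of WT cells with and 16.8% of cells without a Ccl4 UMI, with the higher share among cells with Ccl4 in 2 of 4 mice. In NK-like cells of WT mice it did, with 88.0% and 54.6% and 4 of 4 mice in this direction. The cells of a mouse are not replicates, and these shares are a description.

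Across the 15 classes, Ccl2, Ccl7 and Ccl12 were the most alike of the first group. The Pearson correlation of mean log2(CPM + 1), averaged over the 8 mice, was 0.91 for Ccl2 with Ccl7, 0.92 with Ccl12 and 0.73 with Ccl8, and it was -0.22 with Ccl1. In the second group it was 0.85 for Ccl3 with Ccl4 and 0.93 for Ccl6 with Ccl9, while Ccl5 stood between -0.36 and 0.46 with each of the other 9 genes. Over all genes with at least 200 UMIs, the 3 most like Ccl2 were Gab1, C1rl and C1ra, those most like Ccl12 Lonrf3, C1qb and Ptgs1, those most like Ccl7 Siglec1, Gm10134 and Ms4a7, and those most like Ccl8 Negr1, Col14a1 and Gdf15. Ccl6 was most like Pid1, C130050O18Rik and Fzd7, Ccl9 most like Cxcl2, Igsf6 and Cdiptos, Ccl3 most like Abl1, Entpd1 and Tfpi, Ccl4 most like Cnpy2, Srek1ip1 and Rps6ka1, Ccl5 most like Tmco4, Tdg and Hras and Ccl1 most like Gzmk, Ifng and Gldc. These points share libraries, and some of the classes were gated with genes named here (C1qb and Ms4a7 are TAM markers).

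Between genotypes, Ccl5 rose in TAM-like and cMono-like cells of CaMKK2 KO mice by about 1 order of magnitude. In TAM-like cells it stood at 41.9, 232, 250.2 and 331 CPM in WT mice 1 to 4 and at 758, 2568, 1269.6 and 4594 CPM in CaMKK2 KO mice 1 to 4. The lowest CaMKK2 KO mouse lay above the highest WT mouse, and both groups varied widely, with WT mouse 1 far below the other WT mice. The difference was 10.7-fold, with a log2 fold change of 3.42 ± 0.70 (SE) and an adjusted p of 0.0408. cMono-like cells gave 41.7, 206, 236 and 317 CPM in WT mice against 889.8, 2735, 1751 and 4882 CPM in CaMKK2 KO mice, again without overlap and with the mice in the same order as in TAM-like cells. This difference was 12.6-fold, with a log2 fold change of 3.66 ± 0.63 (SE) and an adjusted p of 0.0219. Marker levels of the class moved as well. In TAM-like cells the 8 cMono markers summed to 1519.9 CPM (1132 to 1975) in WT and 3258 CPM (1845 to 5658) in CaMKK2 KO mice. The 9 TAM markers summed there to 18714 and 15385 CPM and the 9 microglia markers to 484 and 195 CPM, and their part in the Ccl5 difference was not tested. Ccl5 was the only gene of the family to pass the test, of 9 that reached 200 UMIs in TAM-like cells and 8 in cMono-like cells, where 2.5% and 1.47% of all genes passed. In TAM-like cells 13.9% of all genes had no overlap between genotypes, and in cMono-like cells 10.3%. DESeq2 called Ccl5 and Ccl3 in TAM-like cells, where it called 632 of 9484 genes. At an unadjusted p under 0.05 edgeR had 3 genes of the family in either class. The share of all genes under that unadjusted threshold was not computed, so this count has no background beside it. The call in TAM-like cells was lost without WT mouse 2, 3 or 4 or CaMKK2 KO mouse 2 or 4 (adjusted p of 0.0846 to 0.0985), and that in cMono-like cells without WT mouse 2 or 3 or CaMKK2 KO mouse 2 or 4 (0.054 to 0.101), while the log2 fold change stayed between 2.84 and 3.96.

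**Figure D3:**
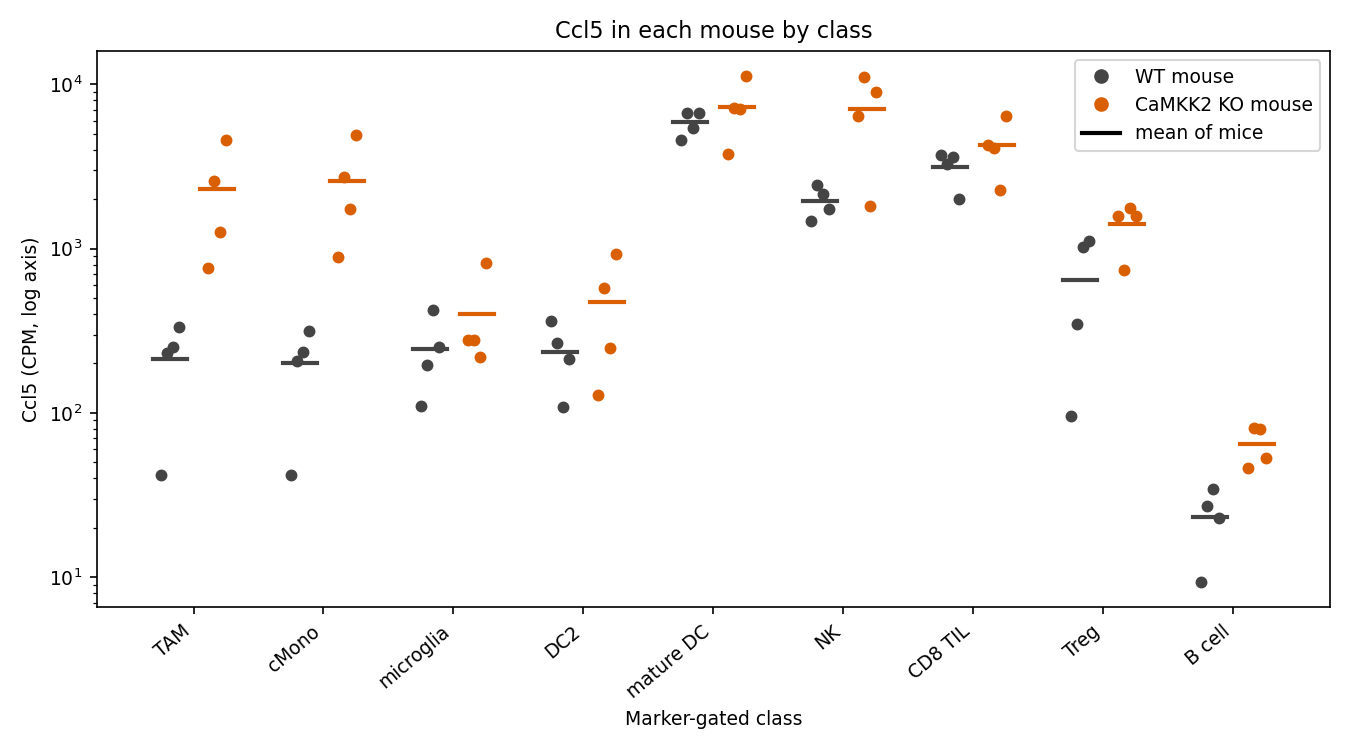
Ccl5 level (CPM, log axis) of each mouse in 9 classes, gray points WT and orange points CaMKK2 KO, with bars for the mean of the mice. CaMKK2 KO mice lie above WT mice without overlap in TAM, cMono and B cell, whereas the genotypes overlap in microglia, DC2, mature DC, NK, CD8 TIL and Treg.

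The rise was spread over many cells. At 3000 UMIs per cell, Ccl5 was detected in 17.8% of TAM-like cells of WT and 60.5% of those of CaMKK2 KO mice (means of 4 mice), or 37.7% and 82.3% without thinning. In B cell-like cells, which should lack the gene, the thinned shares were 7.02% and 18.4%. The median depth before thinning, over both genotypes, was 15612 UMIs in TAM-like and 4197 in B cell-like cells, and cells under 3000 UMIs, 41 and 55 of the TAM-like and 32 and 3 of the B cell-like cells of WT and CaMKK2 KO mice, were left out. In WT mice the 5% of TAM-like cells with the most Ccl5, 93 cells, held 72.7% of the 6476 UMIs, and in CaMKK2 KO mice 76 cells held 38.6% of 45645. Ccl5 in B cell-like cells was 9.37, 27.2, 34.2 and 22.9 CPM in WT mice against 46.3, 81.1, 79.3 and 53.2 CPM in CaMKK2 KO mice, without overlap (as in 10.1% of the genes tested in this class) but from 18 and 72 UMIs, too few for the test. In this class no gene of the family reached 200 UMIs, and 1.9% of all genes passed. In TAM-like cells of CaMKK2 KO mice, Ccl5 stood at 39.0% of its level in NK-like cells of the same mouse, with a range of 11.8% to 70.0%, while the 7 NK markers stood at 0.249% and the TIL markers at 0.400% of their level in NK-like and TIL-like cells. In WT mice the values were 10.8%, 0.293% and 0.285%. For B cell-like cells of CaMKK2 KO mice Ccl5 stood at 1.60% of the NK-like level.

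The share of cells in the clusters that made up these classes differed between genotypes. Mean Ccl5 levels within clusters are described here, and they did not all have the same direction. Only the cluster led by Vcam1 was tested. The cluster led by Ly6i, Arg1 and Nos2, of which the last pair encode arginine-metabolizing enzymes of activated macrophages, held 65.2% of TAM-like cells of CaMKK2 KO and 4.13% of those of WT mice, and the cluster led by Spp1 and Apoe held 4.66% and 41.1%. Inside the first of these Ccl5 was at 753 ± 101 CPM in the 3 WT mice with at least 5 cells and at 3369.9 ± 2253 CPM in the 4 CaMKK2 KO mice. Inside the second it was at 282 ± 137 and 1000.4 ± 579 CPM. The cluster led by Vcam1, with 36.9% of WT and 17.9% of CaMKK2 KO TAM-like cells, was fitted on its own. Its TAM-like cells had 20.5, 128, 66.6 and 319 CPM in WT and 381, 67.8, 555 and 1067 CPM in CaMKK2 KO mice. This gave a log2 fold change of 1.92 ± 0.72 (SE) and an adjusted p of 0.269, with CaMKK2 KO mice 2 and 4 represented by 5 and 8 cells. Levels given for the clusters led by Ly6i, Spp1, Cxcl10 and Chil3 are over all cells of the cluster, and 62.5% and 80.6% of the cells of the first pair were TAM-like. The first pair held 40.7% and 1.39% of cMono-like cells in CaMKK2 KO, and 3.37% and 22.9% in WT mice. Among cMono-like cells, the cluster led by Cxcl10 and Gbp2, which are interferon-induced genes, held 44.0% in CaMKK2 KO and 8.42% in WT mice, with 1554 ± 1072 and 521 ± 221 CPM of Ccl5. The cluster led by Chil3 held 9.03% and 59.6% and had 42.3 ± 18.1 and 99.7 ± 62.9 CPM. In the clusters led by Cxcl10 and Chil3 the Ccl5 ranges over mice overlapped between genotypes. The part of these shifts in the difference of the whole class was not tested.

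NK-like cells also had more Ccl5 in CaMKK2 KO mice. The mice stood at 1469, 2427, 2147 and 1734 CPM in WT and at 6413, 11070.5, 1814 and 8988 CPM in CaMKK2 KO mice 1 to 4, and CaMKK2 KO mouse 3 lay inside the WT range. The difference was 3.63-fold, with a log2 fold change of 1.86 ± 0.38 (SE) and an adjusted p of 0.0181. Of the 3 genes tested in NK-like cells it alone passed, where 2.7% of all genes passed. Ccl3 and Ccl4 had the same direction there without passing the test. Ccl4 was at 37.3, 360.2, 305 and 144 CPM in WT mice against 881, 1845, 206 and 830.0 CPM in CaMKK2 KO mice, with a log2 fold change of 2.15 ± 0.59 (SE) and an adjusted p of 0.0697, and Ccl3 had a log2 fold change of 2.18 ± 0.64 (SE) and an adjusted p of 0.086. In both genes, as in Ccl5, CaMKK2 KO mouse 3 was at the level of the WT mice. Without that mouse all 3 genes passed, with adjusted p of 1.1e-05 for Ccl5, 0.0022 for Ccl3 and 0.00524 for Ccl4. That fit called far more of all genes, 811 of 5902, compared with 180 of 6663 with all mice. Ccl5 no longer passed when WT mouse 1 or 4 or CaMKK2 KO mouse 2 or 4 was left out (0.0561 to 0.0762).

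The Ccl5 response was compared between classes. In microglia-like cells Ccl5 was at 110.3, 195, 423 and 252 CPM in WT mice against 278, 277, 219 and 823 CPM in CaMKK2 KO mice, where the genotypes overlapped and only CaMKK2 KO mouse 4 exceeded the WT mice (log2 fold change of 0.74 ± 0.43 (SE) and an adjusted p of 0.436). The genotype effect on Ccl5 was larger in TAM-like than in microglia-like cells by a log2 difference of 2.79 ± 0.41 (SE), adjusted p = 0.0114, in an edgeR fit with the mouse as a block, where 6 of 4666 genes or 0.129% passed. That call was lost without WT mouse 3 (adjusted p = 0.0682) or CaMKK2 KO mouse 4 (0.0508). Between TAM-like and cMono-like cells it differed by -0.31 ± 0.10 (SE), adjusted p = 0.236, and 0.254% of genes passed. Between TAM-like and NK-like cells it differed by 1.80 ± 0.58 (SE), adjusted p = 0.118, and it did not pass with any 1 of the 8 mice left out. TIL-like cells stood at 2986 ± 819 CPM in WT mice against 2804 ± 922 CPM in CaMKK2 KO mice, with a log2 fold change of -0.09 ± 0.23 (SE). The values of their subsets had different directions. CD4 TIL-like cells were at 921, 1087, 1461 and 689 CPM in CaMKK2 KO mice 1 to 4, compared with a mean of 3662 CPM in the 3 WT mice with such cells. Treg-like cells were at 1577, 737, 1769 and 1581 CPM in CaMKK2 KO mice, compared with 95.2, 347, 1023 and 1106 CPM in WT mice. Neither subset had 10 cells in every mouse, and neither was tested. CD8 TIL-like cells gave 0.44 ± 0.25 (SE) and DC2-like cells 0.94 ± 0.51 (SE) (adjusted p of 0.397 and 0.402). Summed over all cells of a mouse, Ccl5 was at 286, 845, 863 and 739 CPM in WT mice against 1639, 3269, 1466 and 4592 CPM in CaMKK2 KO mice, without overlap (as in 10.8% of genes) and 4.01-fold apart, at an adjusted p of 0.0785.

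Ccl3 and Ccl4 had lower means in microglia-like, TAM-like and cMono-like cells of CaMKK2 KO mice, and no such difference passed the test. In microglia-like cells Ccl3 stood at 2617, 2221, 2355 and 3851 CPM in WT mice against 1981, 1411, 1551 and 762 CPM in CaMKK2 KO mice. The groups did not overlap, as was so for 9.74% of genes in this class, and the log2 fold change was -0.95 ± 0.25 (SE) at an adjusted p of 0.0858. Ccl4 was at 3437, 3375, 4156 and 5959.8 CPM and 3440.0, 1871, 2141 and 1343 CPM, with CaMKK2 KO mouse 1 at the level of WT mice, and a log2 fold change of -0.94 ± 0.25 (SE) and an adjusted p of 0.0972. TAM-like cells had 347, 483, 556 and 538 CPM of Ccl3 in WT and 367, 243, 203 and 226 CPM in CaMKK2 KO mice (log2 fold change of -0.89 ± 0.21 (SE) and an adjusted p of 0.0583). Ccl3 passed there under 4 of 12 alternatives, among them DESeq2 with an adjusted p of 0.00684, and it also passed when WT mouse 1 (0.0337) or CaMKK2 KO mouse 1 (0.0203) was left out. It had the opposite sign in the cluster led by Vcam1. The Ccl4 values of TAM-like cells were 432, 715, 1070.1 and 1046 CPM and 674, 347, 352 and 373 CPM (log2 fold change of -0.90 ± 0.31 (SE) and an adjusted p of 0.143), and in cMono-like cells Ccl3 had a log2 fold change of -0.82 ± 0.28 (SE) and an adjusted p of 0.182. The genotype effect on Ccl4 in TAM-like cells was lower than that in NK-like cells by a log2 difference of -2.99 ± 0.62 (SE), adjusted p = 0.0383, where 1.53% of genes passed, and on Ccl3 by -2.76 ± 0.67 (SE), adjusted p = 0.0584. The Ccl4 difference was lost in 6 of 8 fits without a mouse, those without WT mouse 1, 3 or 4 or CaMKK2 KO mouse 1, 2 or 4 (adjusted p of 0.0592 to 0.115). TIL-like cells had 66.4, 199, 205 and 146 CPM of Ccl3 in WT and 251, 326, 246 and 277 CPM in CaMKK2 KO mice, where the groups did not overlap (as in 12.3% of genes) and the log2 fold change was 0.73 ± 0.21 (SE) at an adjusted p of 0.0977.

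**Figure D4:**
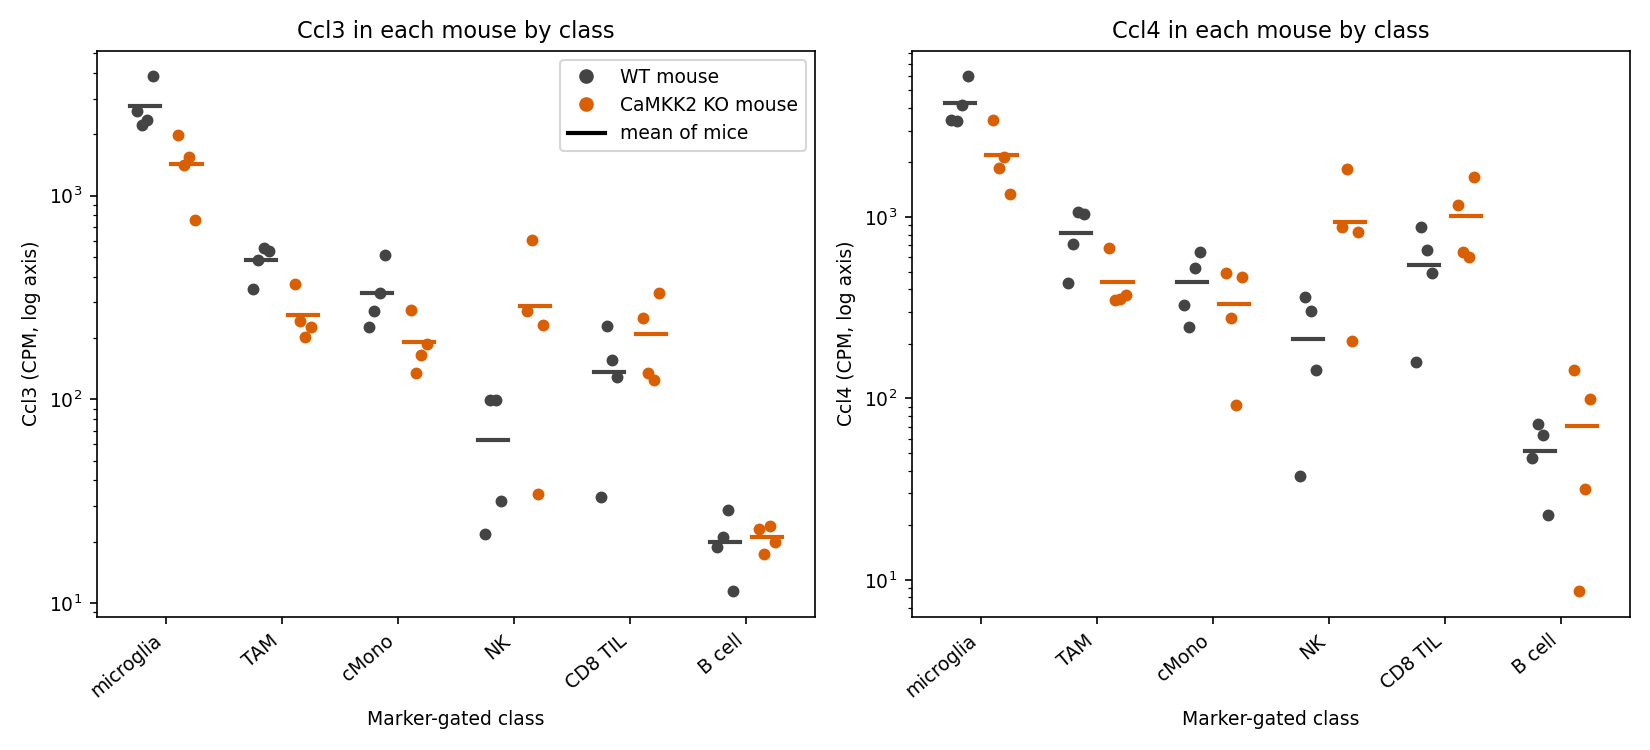
Ccl3 (left) and Ccl4 (right) level (CPM, log axis) of each mouse in 6 classes, gray points WT and orange points CaMKK2 KO, with bars for the mean of the mice. In microglia and TAM the means of CaMKK2 KO mice lie below those of WT mice, in NK and CD8 TIL above, and B cells stay at or under 143 CPM.

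The Ccr2 ligands did not pass the test in any class at the minimum of 200 UMIs. Ccl2 in TAM-like cells was at 487, 567, 744 and 553 CPM in WT mice against 680.1, 496, 345 and 491 CPM in CaMKK2 KO mice (log2 fold change of -0.22 ± 0.20 (SE) and an adjusted p of 0.542), and the genotypes overlapped. In cMono-like cells its log2 fold change was 0.03 ± 0.38 (SE) and in microglia-like cells -0.15 ± 0.37 (SE). Ccl7 gave 0.05 ± 0.34 (SE) in TAM-like and -0.48 ± 0.36 (SE) in cMono-like cells. In microglia-like cells Ccl7 was at 30.2, 96.4, 131 and 77.2 CPM in WT mice against 105, 567, 31.2 and 78.0 CPM in CaMKK2 KO mice (log2 fold change of 1.19 ± 0.70 (SE) and an adjusted p of 0.439), with overlap, and it passed there at a minimum of 1 UMI. Ccl12 gave 0.21 ± 0.32 (SE) in TAM-like cells, where CaMKK2 KO mouse 1 had 1149.8 CPM and the other 3 CaMKK2 KO mice 428 to 583. In microglia-like cells Ccl12 was at 1614, 1612, 2578 and 1986 CPM in WT mice against 1900.5, 1241, 1194 and 1122 CPM in CaMKK2 KO mice, where 3 CaMKK2 KO mice lay below every WT mouse (log2 fold change of -0.51 ± 0.19 (SE) and an adjusted p of 0.228). Ccl8 in TAM-like cells gave 0.18 ± 0.48 (SE), from 487 WT and 495 CaMKK2 KO UMIs. The SEs of these estimates, up to 0.70 for Ccl7 in microglia-like cells, set the size of change that could have been called.

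Ccl6 and Ccl9 did not pass the test either. In cMono-like cells Ccl6 was at 591, 601, 339 and 277 CPM in WT mice against 330.3, 239, 280.0 and 148 CPM in CaMKK2 KO mice (log2 fold change of -0.86 ± 0.30 (SE) and an adjusted p of 0.196), with WT mice 1 and 2 above all others. Ccl9 gave -0.36 ± 0.27 (SE) there and -0.70 ± 0.31 (SE) in TAM-like cells. DC2-like cells had the other sign for Ccl9, with 73.2, 91.2, 114 and 33.1 CPM in WT mice against 268, 301, 56.2 and 227 CPM in CaMKK2 KO mice, where 3 CaMKK2 KO mice exceeded every WT mouse and the log2 fold change was 1.44 ± 0.47 (SE) at an adjusted p of 0.17. Ccl6 in DC2-like cells gave 0.85 ± 0.32 (SE), adjusted p = 0.221. No gene of the family passed in DC2-like, TIL-like or microglia-like cells or over all cells, where 1.44%, 1.36%, 1.29% and 1.59% of all genes did. At an unadjusted p under 0.05 there were 2 of 5 tested genes in DC2-like, 2 of 5 in TIL-like, 4 of 8 in microglia-like cells and 3 of 10 over all cells. The share of all genes under this unadjusted threshold was not computed, so these counts do not show an excess in the family. DESeq2 called none in DC2-like and TIL-like cells, Ccl3 and Ccl4 in microglia-like cells, and Ccl5 and Ccl3 over all cells. Of all genes it called 141 of 4507, 157 of 7188, 105 of 4712 and 665 of 11275, in the same order.

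Ccl1 fell in CD8 TIL-like cells of CaMKK2 KO mice, on the strength of few cells. It was at 6.62, 223, 9.66 and 261 CPM in WT mice against 10.7, 8.31, 3.20 and 2.19 CPM in CaMKK2 KO mice, so that WT mice 2 and 4 stood high and WT mice 1 and 3 lay within the CaMKK2 KO range. The log2 fold change was -4.48 ± 0.90 (SE) at an adjusted p of 0.025, and of the 4 chemokine genes tested Ccl1 alone passed, where 1.08% of all genes did. The call was lost without WT mouse 2 or 4 or CaMKK2 KO mouse 1, 2 or 3 (adjusted p of 0.0546 to 0.0981) and with limma on the mean CPM of cells (log2 fold change of -3.10, adjusted p = 0.218), and DESeq2 gave no adjusted p for it. Over all TIL-like cells Ccl1 stood at 3.32, 156, 8.45 and 175 CPM in WT mice against 118, 87.3, 98.8 and 103 CPM in CaMKK2 KO mice, for a log2 fold change of 0.02 ± 0.57 (SE). Most of the Ccl1 UMIs of CaMKK2 KO mice were in CD4 TIL-like cells, and a further 163 were in a single TIL-like cell of no named subset from mouse 2.

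**Figure D5:**
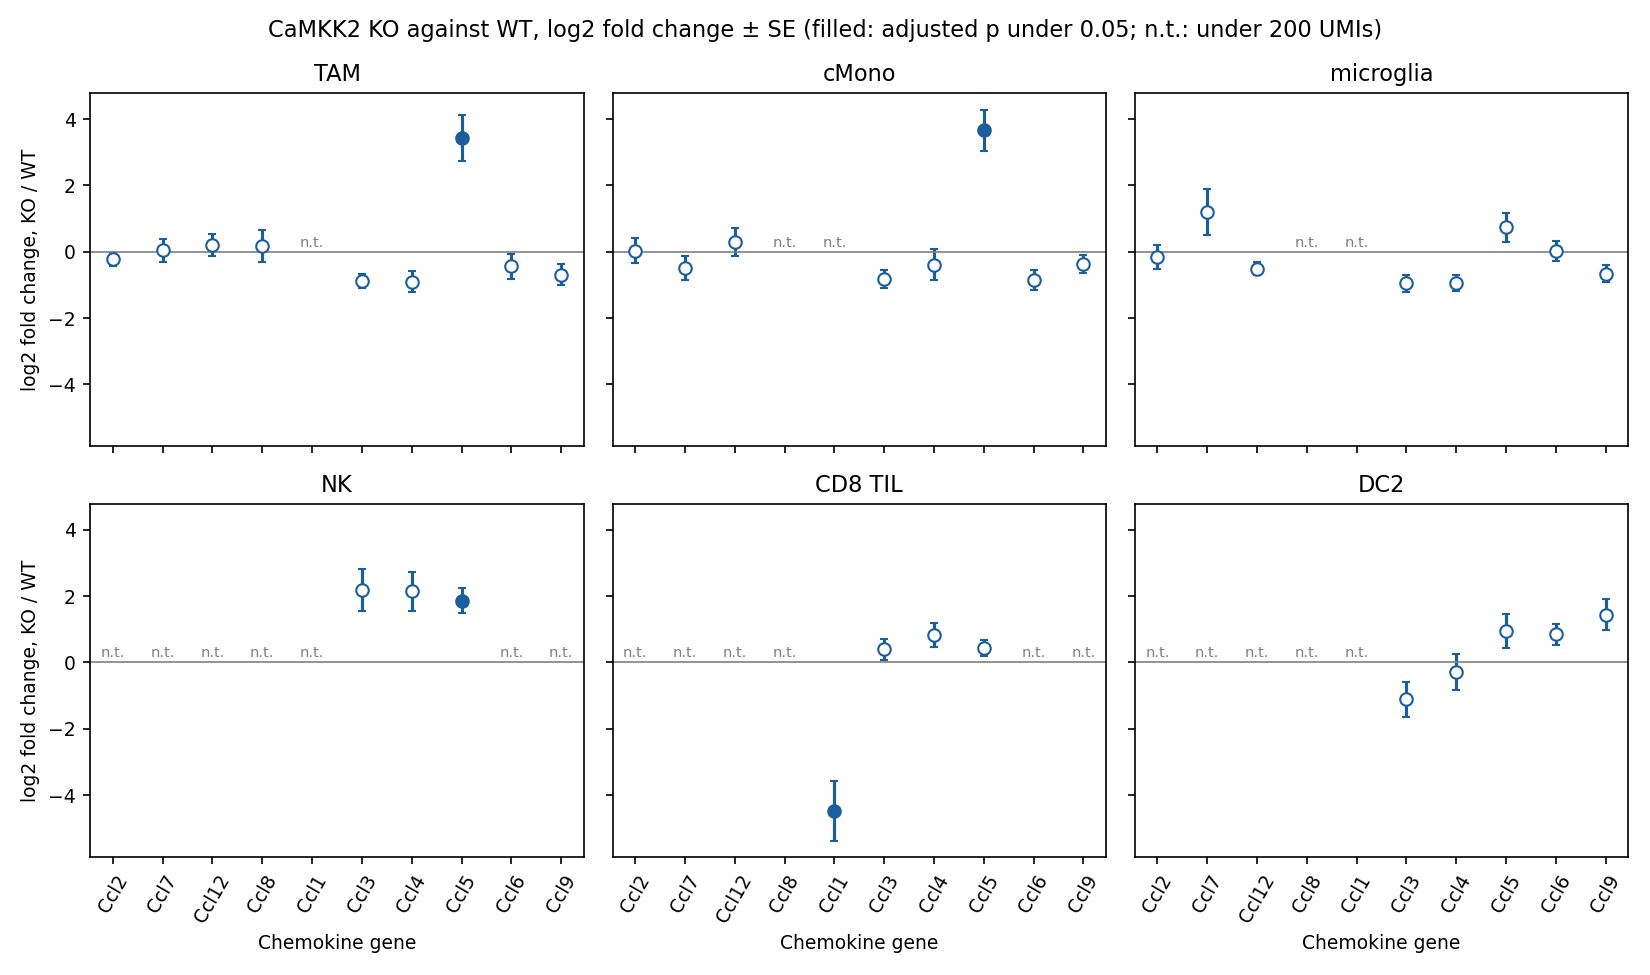
Log2 fold change of CaMKK2 KO against WT mice (points, with SE bars, from edgeR) for each chemokine gene in 6 classes, filled where the adjusted p was under 0.05 and n.t. where the class held under 200 UMIs of the gene. Ccl5 is the filled point in TAM (3.42), cMono (3.66) and NK (1.86), Ccl1 in CD8 TIL (-4.48), and the open points of Ccl3 and Ccl4 lie below 0 in the myeloid classes and above 0 in NK and CD8 TIL.

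As a family, the chemokine genes had no common direction. The median log2 fold change of the genes tested was -0.22 for TAM-like, -0.33 for microglia-like and -0.38 for cMono-like cells, beside -0.08, -0.10 and -0.01 over all genes tested. It was 2.15 over 3 genes in NK-like cells, beside 0.08. The summed level of the 10 genes was 10576 ± 1932 CPM in microglia-like cells of WT and 6726 ± 1969 of CaMKK2 KO mice. In TAM-like cells it was 3382 ± 658 and 4735 ± 1347 CPM, and in NK-like cells 2282 ± 605 and 8332 ± 4833 CPM. Of these sums Ccl5 alone contributed 214 and 2297 CPM in TAM-like cells, and 1944 and 7071 CPM in NK-like cells. Without it the TAM-like sum was lower in CaMKK2 KO than in WT mice.

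Among the receptors, Ccr2 rose in TIL-like cells, in both of their tested subsets and in DC2-like cells. In TIL-like cells it was at 70.4 ± 20.8 CPM in WT mice against 186 ± 20.7 CPM in CaMKK2 KO mice (log2 fold change of 1.30 ± 0.15 (SE), adjusted p = 0.00048). The log2 fold change was 1.71 ± 0.35 (SE), adjusted p = 0.025 in CD8 TIL-like cells, 1.38 ± 0.35 (SE), adjusted p = 0.0432 in TIL-like cells of no named subset, where 5.73% of genes but none of the 3 chemokine genes tested passed (0 at an unadjusted p under 0.05), and 1.70 ± 0.33 (SE), adjusted p = 0.0271 in DC2-like cells. In cMono-like cells, where Ccr2 is a marker of the gate, it was at 667 ± 47.5 and 823 ± 46.4 CPM and did not pass. The 8 cMono markers, Ccr2 among them, summed to 1487 CPM (707 to 1839) in WT and 3152 CPM (2049 to 4068) in CaMKK2 KO mice in DC2-like cells. They summed to 1315 and 1672 CPM in TIL-like and to 1355 and 2323 CPM in CD8 TIL-like cells, and their part in the Ccr2 difference was not tested. Ccr1, on which Ccl3, Ccl5, Ccl6 and Ccl9 act, did not pass in any of the 4 classes where it was tested or over all cells. In TAM-like cells it was at 358 ± 69.8 CPM in WT mice and 393 ± 58.0 CPM in CaMKK2 KO mice. Of 14 receptor genes, 4 had at least 200 UMIs in TAM-like and 4 in TIL-like cells. None of the 10 other CC chemokines passed in any class by edgeR. At an unadjusted p under 0.05 there were 1 of 5 over all cells, 1 of 2 tested genes in TAM-like and 1 of 2 in DC2-like cells, with no share of all genes computed. Most UMIs of these 10 genes were of Ccl22 and Ccl17, which stood at 1433 ± 810.2 and 520.3 ± 452 CPM in mature DC-like cells of WT mice.

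Genes that respond to NF-kB or to tissue digestion were followed beside the chemokines, since CC chemokine genes are induced by NF-kB and the tissue was digested at 37 °C for 15 min. Of 12 NF-kB response genes, 11 were tested in microglia-like cells, where Nfkbiz, which encodes a regulator of NF-kB, fell from 607 ± 87.8 to 273 ± 93.1 CPM (log2 fold change of -1.14 ± 0.21 (SE), adjusted p = 0.0173). The median log2 fold change of the 11 was -0.14, beside -0.10 over all 4712 genes tested. Of the 11, 10 had a negative log2 fold change. By edgeR 3 had an unadjusted p under 0.05, with no share of all genes computed. The 12 genes summed there to 3340 CPM (2499.5 to 3906) in WT and 2329 CPM (2005 to 2672) in CaMKK2 KO mice. None passed in TAM-like, cMono-like or NK-like cells by edgeR, also at an unadjusted p under 0.05 (0 of 11, 0 of 11 and 0 of 9). Of the 15 immediate early genes, Nr4a1, which encodes a nuclear receptor, fell in TAM-like (log2 fold change of -1.20 ± 0.16 (SE), adjusted p = 0.00498), cMono-like (-1.25 ± 0.20 (SE), adjusted p = 0.0173) and DC2-like cells (-1.06 ± 0.14 (SE), adjusted p = 0.00219). Atf3 fell in microglia-like cells (-1.18 ± 0.25 (SE), adjusted p = 0.0297), while in NK-like cells Jund rose (0.54 ± 0.12 (SE), adjusted p = 0.0342) and the heat shock genes Hspa1a (-2.63 ± 0.39 (SE), adjusted p = 0.0019) and Hspa1b (-2.20 ± 0.35 (SE), adjusted p = 0.00318) fell. Hspa1b also fell over all cells (-1.25 ± 0.16 (SE), adjusted p = 0.00619). The 15 genes summed to 20101 CPM in microglia-like cells of WT mice, with a range of 15850.5 to 23277, and 17882 CPM in those of CaMKK2 KO mice (16039 to 19628). In TAM-like cells they summed to 8036 and 7484 CPM, and in NK-like cells to 3314 and 4329 CPM. In DC2-like cells they summed to 12258 CPM (10575 to 13560) in WT and 9279 CPM (7645 to 10585) in CaMKK2 KO mice. The median log2 fold change of the 15 genes there was -0.46, beside 0.06 over all genes tested. Their part in the levels of the chemokine genes was not tested.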

How the data were processed

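The authors deposited UMI counts per gene and barcode for 1 library of WT and 1 of CaMKK2 KO mice, made per the submitters' processing notes with bcl2fastq 2.20, Cell Ranger 4.0.0 and STAR 2.7.5c on mm10, not normalized and not filtered beyond the calling of cells. The 6689 WT and 7271 CaMKK2 KO barcodes were split by mouse with the HTODemux function of Seurat 5.3.0 (quantile 0.99), which left 5974 and 6696 of a single mouse, and 667 and 508 hashtag doublets were dropped. Barcodes with fewer than 200 genes and outliers by 3 median absolute deviations in UMIs, genes or mitochondrial share (scuttle 1.12.0, 744 and 922) were removed. The 222 and 169 cells with the highest Scrublet scores (scanpy 1.11.5, at 0.8% expected per 1000 barcodes) were removed as well. Of these, 182 and 135 were not already outliers.

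Cells were gated into classes by marker genes, and clustered without CC chemokine genes (3000 variable genes, 30 components, 20 neighbors, resolution 1) as a check. The UMIs of each class were added up within a mouse and tested with edgeR 4.0.16 (quasi-likelihood, library size equal to the class total, genes with at least 200 UMIs, classes with at least 10 cells in every mouse, Benjamini-Hochberg adjusted p of 0.05). The study compared cells with another test, but cells of a mouse are not replicates. In data simulated at the depth of each class, 200 genes were each changed 4-fold up or down. Of these, 97.5% were recovered in TAM-like cells (9484 genes). The share was 100% in microglia-like cells (4712 genes), 99% in cMono-like cells (7530 genes) and 100% in NK-like cells (6663 genes). Of the genes called there, 5.34%, 4.31%, 5.26% and 6.54%, in the same order, were not among those changed. How recovery depends on the size of a difference, such as those of Ccl3, Ccl4, Ccl6 and Ccl12, was not tested. In the real data, the 4.01-fold difference of Ccl5 over all cells did not pass. Neither did the 4.53-fold difference of Ccl3 and the 4.43-fold difference of Ccl4 in NK-like cells, so the simulated recovery does not carry over to these genes. Alternatives were DESeq2 1.42.0, limma 3.58.1, TMM scaling, other filters, other gates and each mouse left out. All 10 chemokine genes are named, and genes of related lists only where they passed or held most UMIs of their list, or as receptors of ligands described. The members and lists were chosen with earlier results of these data known. Mice were separate animals by their hashtags, while each genotype was 1 library. Intervals cover counting error only.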

Additional observations from a re-analysis of the deposited data

Results flagged for a closer look

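In 4 of 110 groups of mice, each a gene in a class and a genotype, 1 mouse lay far from the other 3 by Dixon's criterion, which chance meets in about 1 of 20 groups. CaMKK2 KO mouse 2 had 567 CPM of Ccl7 in microglia-like cells, and CaMKK2 KO mouse 4 had 823 CPM of Ccl5 there. CaMKK2 KO mouse 1 stood above the other CaMKK2 KO mice in Ccl12 in microglia-like cells (1900.5 CPM) and in Ccl4 in TAM-like cells (674 CPM). Microglia-like cells numbered 18 to 51 per CaMKK2 KO mouse.

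The genotype effect differed between classes for Ccl5, where the log2 difference between TAM-like and microglia-like cells was 2.79 (edgeR adjusted p = 0.0114), and for Ccl4, where that between TAM-like and NK-like cells was -2.99 (edgeR adjusted p = 0.0383). The signs were the same in all 8 fits that left out 1 mouse each, of which 6 and 2, respectively, passed the threshold.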

How the results depend on the processing

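No paired analysis was possible because the hashtag numbers only name the mice and tie no WT mouse to a CaMKK2 KO mouse. The rise of Ccl5 passed under 11 of 12 alternatives in TAM-like cells, 9 of 10 in cMono-like cells and 10 of 10 in NK-like cells, and no alternative gave it another sign. It did not pass among TAM-like cells of the cluster led by Vcam1 (log2 fold change of 1.92, edgeR adjusted p = 0.269; 0 genes of the family passed) or in cMono-like cells defined by clusters (3.21, adjusted p = 0.0699; 0 genes passed). Both TAM-like subsets, the fits against NK-like cells and the leaving out of mice in the class-by-genotype fits were chosen after seeing the data. The lower level of Ccl1 in CD8 TIL-like cells of CaMKK2 KO mice did not pass with limma on the mean CPM of cells (-3.10, adjusted p = 0.218, with 0 genes of the family passing). With limma 1 gene of the family, Ccl3, passed in TIL-like cells of no named subset, where 87 of 1519 genes passed. The cause of these changes was not tested. Signs were compared only for genes and classes with an unadjusted p under 0.05 in the main edgeR fit. Among these, the only reversed value was Ccl3 in the cluster led by Vcam1, with a log2 fold change of 0.35 and an edgeR adjusted p of 0.778. In the class-by-genotype fits against microglia-like cells that left out 1 mouse, the differences of Ccl2, Ccl3, Ccl4, Ccl6, Ccl7 and Ccl9 took either sign.

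DESeq2 called 2 genes over all cells (Ccl5 and Ccl3), 2 in TAM-like cells (Ccl5 and Ccl3) and 2 in microglia-like cells (Ccl3 and Ccl4). Of all genes it called 665 of 11275, 632 of 9484 and 105 of 4712, in the same order. With every gene of at least 1 UMI tested, 2 genes passed over all cells, 2 in TAM-like, 5 in microglia-like (Ccl7, Ccl5, Ccl9, Ccl3 and Ccl4), 4 in DC2-like, 4 in NK-like, 2 in TIL-like, 3 in CD8 TIL-like cells and 3 in TIL-like cells of no named subset. The test of TAM-like cells called 2 genes (Ccl5 and Ccl3) with limma and also with the cells of high Scrublet scores kept. Of all genes these fits called 190 of 9484 and 257 of 9582. Microglia-like cells defined by clusters gave 1 gene (Ccl3), where 95 of 4740 genes passed. NK-like cells gave 2 genes (Ccl1 and Ccl5) at a minimum of 50 UMIs and 3 genes (Ccl5, Ccl3 and Ccl4) with outlying cells kept. In these NK-like fits 269 of 9508 and 413 of 7342 genes passed. TMM scaling and the limit on the top hashtag changed no call, nor did leaving out cells near a gate edge.

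Without 1 mouse at a time, the genes called numbered 0 to 2 over all cells, 0 to 2 in TAM-like, 0 to 1 in microglia-like, 0 to 1 in cMono-like, 0 to 1 in DC2-like, 0 to 3 in NK-like and 0 to 1 in CD8 TIL-like cells. Of all genes these fits called 72 of 11084 to 185 of 11032 over all cells. The range was 104 of 9309 to 381 of 9265 in TAM-like and 30 of 4507 to 110 of 4253 in microglia-like cells. It was 42 of 6898 to 126 of 7455 in cMono-like and 23 of 4238 to 295 of 4046 in DC2-like cells. In NK-like cells it was 71 of 6241 to 811 of 5902, and in CD8 TIL-like cells 22 of 4665 to 101 of 4547. The log2 fold change of Ccl5 then ranged from 2.84 to 3.72 in TAM-like, 3.14 to 3.96 in cMono-like and 1.56 to 2.18 in NK-like cells, and that of Ccl1 in CD8 TIL-like cells from -5.05 to -3.92. The class-by-genotype fits called 0 to 1 gene against microglia-like and 0 to 2 against NK-like cells.

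The number of all genes called moved more. In the order all cells, TAM-like, microglia-like, cMono-like, DC2-like and CD8 TIL-like cells, edgeR called 179, 237, 61, 111, 65 and 57 genes and DESeq2 665, 632, 105, 340, 141 and 116. With a minimum of 1 UMI, edgeR called 469 genes in TAM-like, 392 in microglia-like, 262 in cMono-like, 393 in DC2-like, 680 in NK-like (180 at 200 UMIs), 522 in TIL-like (98 at 200 UMIs) and 443 in CD8 TIL-like cells. With limma it was 113 in NK-like, 49 in TIL-like and 11 in CD8 TIL-like cells, and 413 genes were called in NK-like cells with outlying cells kept. For each chemokine gene, 1 level was checked, that of WT mice in the tested class where the gene was highest. None of these moved by more than 1 SD over mice when classes were defined by clusters, cells were weighted equally or the level in B cell-like cells was subtracted. The cluster definition did not cover TIL-like cells of no named subset, the class taken for Ccl5. Levels of CaMKK2 KO mice and of other classes were not checked in this way. Classes under 10 cells in any mouse, among them CD4 TIL-like and mature DC-like cells, could not be tested at this depth.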
